A study of Mus musculus with 8 samples.

Results

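The report concerns the regions of open chromatin that were called in E47-ER cells after 16 h of 4-hydroxytamoxifen and in none of the other 3 peak lists of the study. Overlapping lines of each list were merged into regions, and regions of different lists that overlapped by 1 bp or more were linked into union regions. Of 60835 union regions, 1388 (2.28%) held a region of the E47 16 h list and no region of another list. They were chosen by these calls alone, and made up 3.41% of the 40649 regions of the E47 16 h list and covered 365047 bp.

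Chromatin accessibility was measured by ATAC-seq, in which the transposase Tn5 inserts adapters into open DNA. The cells were thymic group 2 innate lymphoid cells (ILC2s) of plck-Id1 mice on the C57BL/6 strain, so that every group carried the Id1 transgene. They carried a retrovirus for E47-ER with GFP, or a retrovirus for GFP alone, had been sorted for GFP and grown in cytokines that included IL-7, IL-25 and IL-33, and were harvested after 4 h or 16 h of 4-hydroxytamoxifen. The 8 samples formed 4 groups of 2, namely E47 16 h, E47 4 h, GFP 16 h and GFP 4 h. Whether samples of 1 group stem from different cultures or mice is not stated, nor is the age of the mice, and no untreated cells were used here. A group's 2 samples entered 1 deposited list of peaks. There was thus no replicate spread and groups could not be tested against each other. Each share below has an exact 95% binomial interval that covers counting error only.

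ILC2s are tissue-resident lymphocytes that respond to IL-25 and IL-33 and make type 2 cytokines under the control of GATA3. E47 is an E protein, a helix-loop-helix transcription factor made from Tcf3, which binds DNA at E-boxes (CANNTG) as a dimer. Id1 pairs with E proteins and keeps them off DNA, and thymic ILC2s are known to be abundant where E proteins are blocked. Fused to the hormone-binding part of the estrogen receptor, E47-ER becomes active when 4-hydroxytamoxifen is added.

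The sample descriptions disagreed with the titles and transduction labels that set the groups. In every group, they gave replicate 1 as empty MIGR1 and replicate 2 as the vector with E47-ER. Under that reading every list would pool both vectors, and a region called in the E47 16 h list alone would not be specific to a vector. Tcf3, which supplies the E47 part of the construct, held 1 region and no member in each list, with highest fold enrichments of 17.4 in E47 16 h, 16.7 in E47 4 h, 15.6 in GFP 16 h and 16.1 in GFP 4 h. Esr1, the estrogen receptor gene, held 5, 5, 5 and 6 regions in the same order and no member, with highest fold enrichments of 9.18, 13.1, 17.4 and 16.3, and Id1 held 1 region in each list and no member, counting regions that overlapped the gene body. The highest Tcf3 values were higher in both E47 lists and the highest Esr1 values lower, and with 1 list per group neither difference can be tested. The defining ILC2 genes Gata3, Il1rl1, Il17rb, Klrg1, Areg, Il5, Il13 and Rora all had a region in each of the 4 lists. Of 9 T cell markers, 4, 4, 4 and 3 had a region in E47 16 h, E47 4 h, GFP 16 h and GFP 4 h, and 0 members lay at any of them. Of 4 myeloid markers 2 had a region in each list, and of 3 mast cell markers all had, with no member. Of 5 NK cell and ILC1 markers 4 had a region in each list, with 1 member, at Eomes. Of 6 ILC3 and Th17 markers 6, 6, 5 and 5 had a region in the same order, with 1 member, at Il22, and of 4 B cell markers 2, 3, 2 and 2 had, with none. Open chromatin at a marker gene does not measure its expression, and the part of other cells in the lists was not tested.

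The sequence of a region needs a genome of build mm10, which was not used here, so the DNA shown is that of promoter windows and hairpins that members touched. A promoter window runs from 250 bases before to 50 after a gene's start, in RefSeq for GRCm38.p6, the assembly of mm10. The following 5 windows belong to protein-coding genes where a member's summit lay within 100 bp of the start, and were picked after the values were seen to show windows without and with E-boxes. Capitals mark CAGGTG (or CACCTG, the same motif on the other strand) and CAGCTG, the E-boxes that E47 is known to prefer. These motifs cannot overlap each other. The genes are Clec12a, an inhibitory lectin receptor of myeloid cells (chr6:129349994-129350293, plus strand), Shisa5, an inducer of apoptosis (chr9:109052604-109052903, plus strand), Pglyrp1, a peptidoglycan recognition protein (chr7:18884440-18884739, plus strand), Tafa3, a secreted chemokine-like protein (chr3:104777498-104777797, minus strand), and Fam83b (chr9:76567066-76567365, minus strand).
Clec12a: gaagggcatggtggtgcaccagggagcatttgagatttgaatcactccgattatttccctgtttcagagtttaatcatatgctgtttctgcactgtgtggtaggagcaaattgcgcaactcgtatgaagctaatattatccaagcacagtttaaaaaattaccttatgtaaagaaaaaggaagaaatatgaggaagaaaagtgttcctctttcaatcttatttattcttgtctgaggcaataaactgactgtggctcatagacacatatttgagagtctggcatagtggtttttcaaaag
Shisa5: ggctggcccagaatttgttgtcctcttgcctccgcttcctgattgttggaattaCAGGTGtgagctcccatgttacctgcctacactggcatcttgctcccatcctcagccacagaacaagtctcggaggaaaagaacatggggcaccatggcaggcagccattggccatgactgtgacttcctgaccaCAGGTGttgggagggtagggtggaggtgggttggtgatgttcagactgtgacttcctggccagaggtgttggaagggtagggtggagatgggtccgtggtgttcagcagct
Pglyrp1: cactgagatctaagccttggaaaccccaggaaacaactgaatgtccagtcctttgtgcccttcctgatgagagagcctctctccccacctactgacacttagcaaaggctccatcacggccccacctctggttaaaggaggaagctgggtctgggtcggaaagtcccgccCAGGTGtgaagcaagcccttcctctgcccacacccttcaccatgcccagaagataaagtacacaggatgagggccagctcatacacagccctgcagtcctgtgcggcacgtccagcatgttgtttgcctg
Tafa3: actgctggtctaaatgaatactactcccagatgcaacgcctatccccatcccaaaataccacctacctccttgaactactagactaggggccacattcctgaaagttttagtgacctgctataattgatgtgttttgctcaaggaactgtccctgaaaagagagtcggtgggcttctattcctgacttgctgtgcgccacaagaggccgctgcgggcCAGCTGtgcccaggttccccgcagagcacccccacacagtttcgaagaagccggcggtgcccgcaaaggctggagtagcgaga
Fam83b: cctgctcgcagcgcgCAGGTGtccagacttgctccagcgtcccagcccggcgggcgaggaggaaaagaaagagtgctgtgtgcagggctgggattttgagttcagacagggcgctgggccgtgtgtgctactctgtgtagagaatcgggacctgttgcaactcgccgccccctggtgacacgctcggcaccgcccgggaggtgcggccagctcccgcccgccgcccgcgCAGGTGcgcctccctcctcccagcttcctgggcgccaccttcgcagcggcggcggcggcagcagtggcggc

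The member at Clec12a (chr6:129350198-129350393) had a fold enrichment of 9.54, with its summit 17 bp from the start, and its window held no E-box of either kind. It lay 735 bp from the nearest region of GFP 4 h and over 10 kb from those of E47 4 h and GFP 16 h. A weaker member (chr6:129349871-129350126, fold enrichment 6.66) touched the same Clec12a window. At Shisa5 the member (chr9:109052719-109052907) had a fold enrichment of 3.61 and covered the E-box 61 bases before the start, while the E-box 196 bases before the start lay outside it. Regions of E47 4 h, GFP 16 h and GFP 4 h lay 233, 183 and 684 bp away. The member at Pglyrp1 (chr7:18884382-18885005) covered the whole window with its E-box 80 bases before the start, at a fold enrichment of 6.54. At Tafa3 the member (fold enrichment 4.68) covered the E-box 33 bases before the start. Fam83b had E-boxes 235 and 21 bases before its start, both inside a member with a fold enrichment of 6.66 that lay over 10 kb from any region of another list. The matches are descriptions of the letters, not binding sites.

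Members also covered the hairpins of 2 microRNAs, Mir155 and Mir6973a. Mir155, whose product miR-155 acts in lymphocyte activation, lies at chr16:84714140-84714204 on the plus strand within its host gene Mir155hg. Mir6973a lies at chr17:35194972-35195049 on the plus strand, in Ltb, the gene of the cytokine lymphotoxin beta. Their mature sequences from RefSeq (GRCm38.p6) follow, with the seed, bases 2 to 8, in capitals. No seed was shared among them.
miR-155-5p: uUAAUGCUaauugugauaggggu
miR-155-3p: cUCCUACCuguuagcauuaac
miR-6973a-5p: uACGGUGGgagggguggaguug
miR-6973a-3p: cACUCUAAcccuaccuacccau

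The member over Mir155 (chr16:84713975-84714347) had a fold enrichment of 5.12 and lay beside a stronger region that all 4 lists shared. That shared region reached fold enrichments of 14.9 in E47 16 h, 18.1 in E47 4 h, 17.5 in GFP 16 h and 16.8 in GFP 4 h, and ended 369, 367, 413 and 364 bp from the member. The member over Mir6973a (chr17:35194875-35195130) had a fold enrichment of 4.22 and lay 181, 248 and 233 bp from regions of E47 4 h, GFP 16 h and GFP 4 h. The E47 4 h region at 181 bp was weak (fold enrichment 2.90) and alone in that list. The region that all 4 lists shared lay 428 bp away in E47 16 h and 445 bp away in E47 4 h. In both cases an accessible site next to the hairpin was called in every list. Only 4 of 1388 members (0.288%; 0.0786 to 0.736) lay within 1 kb of a hairpin, beside 180 of the 40649 regions of the whole E47 16 h list (0.443%; 0.381 to 0.512). The other hairpins were Mir17, at 742 bp, and Mir3075, at 792 bp.

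The members were weak regions of their list. Strength here means the percentile that the highest −log10 p of a region takes in its own list, and fold enrichment is the authors' highest value in the region. Both come from the calls that chose the members and are given as description only. The fold enrichment of the members had a median of 5.58 and ranged between 1.57 and 13.4, against a median of 10.4 for the 32027 regions of the E47 16 h list found in all 4 lists. Their median percentile was 7.37 and their highest 58.7, against a median of 60.2 for regions in all 4 lists. Regions that the E47 lists shared and both GFP lists lacked were in between, with a median fold enrichment of 6.30 and a median percentile of 18.3. Of the members, 841 (60.6%) lay below percentile 10, 1266 (91.2%) below percentile 25, and 5 (0.360%; 0.117 to 0.839) above the median. Most (848, 61.1%) held 1 summit, and their widths ran between 73 and 1002 bp with a median of 214 bp.

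Members thinned out quickly with strength. They were 20.7% of the E47 16 h list below percentile 10, 8.21% between percentiles 10 and 20, 3.49% between 20 and 30, and 0 of the 16260 regions above percentile 60. Regions alone in each other list were likewise weak. The E47 4 h list had 4386 such regions (8.81%), GFP 16 h 6455 (12.2%) and GFP 4 h 1362 (3.19%). The E47 16 h list was the shortest, with 40649 regions against 49811, 52846 and 42665 in E47 4 h, GFP 16 h and GFP 4 h, and the larger shares called alone were those of the 2 longest lists. With all lists shortened to equal length by −log10 p, 2968 regions were alone in E47 16 h, against 1726, 2077 and 2110 in the same order. Under a minimum of 830 for the deposited peak score in every list, 657 were alone in E47 16 h and 198 of the 1388 members were among them. A member is thus a region that was not called elsewhere, and it may have been open below the calling threshold there. Fold enrichment and −log10 p were both equal to those of another member in 482 members (34.7%), up to 45 sharing 1 pair of values, so the order of weak members carries little.

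**Figure D1:**
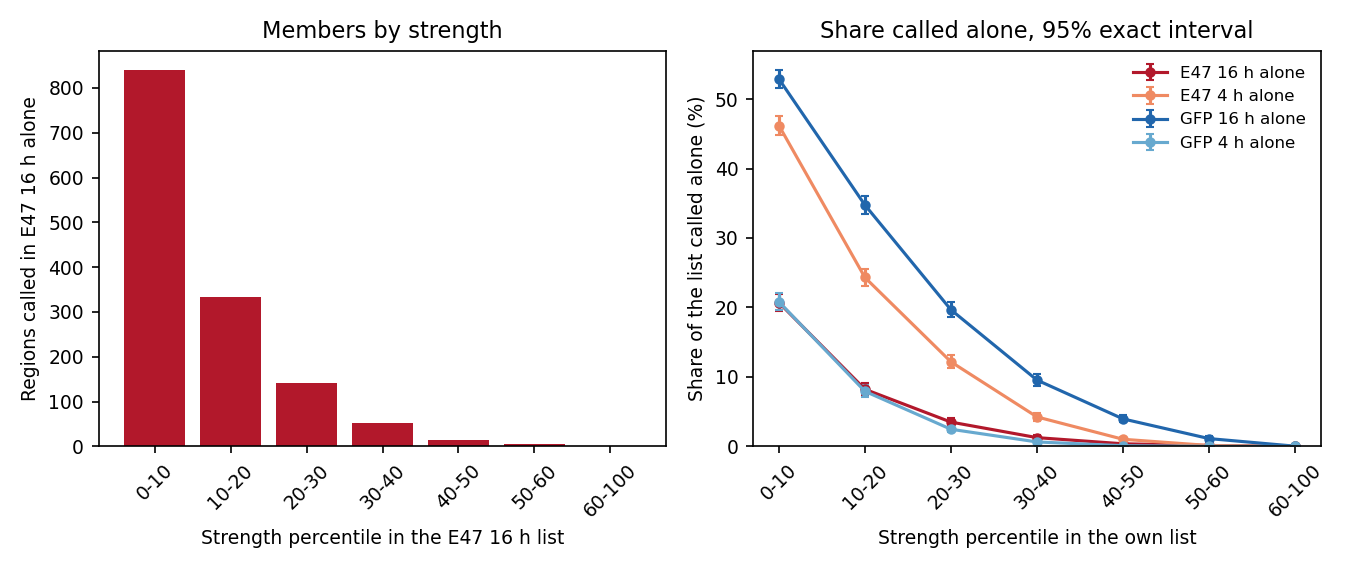
Left, number of members (regions called in E47 16 h alone) by strength percentile in the E47 16 h list; right, share of each list called in that list alone (%) by strength percentile in that list, with exact 95% binomial intervals. Members are concentrated below percentile 10, where they are 20.7% of the list, and there are none above percentile 60.

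Members lay near and inside genes about as often as regions alone in E47 4 h. Summits of 14.9% of members stood within 1 kb of either end of a protein-coding gene (207 of 1388; 13.1 to 16.9), against 14.2% of regions alone in E47 4 h (13.2 to 15.3), 9.98% in GFP 16 h (9.26 to 10.7) and 12.04% in GFP 4 h (10.4 to 13.9). For regions in both E47 lists and no GFP list the share was 10.4% (9.11 to 11.8), and for regions in all 4 lists 37.7%. The interval of the members overlapped those of E47 4 h alone and GFP 4 h alone and lay above those of GFP 16 h alone and of the regions in both E47 lists. Summits inside a gene and over 1 kb from its ends made up 49.8% of members (47.1 to 52.4), against 49.9% in E47 4 h alone, 54.9% in GFP 16 h alone, 50.9% in GFP 4 h alone and 37.1% in all 4 lists. A further 30.04% of members lay outside genes with a gene within 100 kb, and 5.26% lay farther away. Among regions of like strength the gap to the shared regions was smaller. Below percentile 10 of the E47 16 h list, 15.6% of members and 19.1% of regions in all 4 lists lay near a gene end. Between percentiles 20 and 30 the shares were 11.3% and 19.2%.

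Many members flanked sites that were called in at least 1 other list. Another list had a region within 1 kb of 514 members (37.0%; 34.5 to 39.6). Of these, 424 (82.5%) also had within 1 kb an E47 16 h region shared with at least 1 other list. The remaining 874 members lay apart, and 384 of them (27.7% of all members) were over 10 kb from any region of the other lists. Members beside another list were near gene ends in 26.7% of cases (22.9 to 30.7), against 8.01% (6.30 to 10.01) of members apart. They were narrower, with a median width of 176 bp against 243 bp, and had a lower median fold enrichment, 4.32 against 5.94. Of the 10 strongest members near a gene end, those at Cep192, Ercc2 and Jrk lay within 100 bp of a region of each other list. The member by Baz1a, a chromatin remodelling gene, at a fold enrichment of 8.64, and the member by Litaf, at 8.24, had no region of another list within 10 kb. The same split held in each other list's single regions, at 25.4% and 7.17% in E47 4 h, 20.1% and 5.71% in GFP 16 h, and 22.3% and 6.70% in GFP 4 h. The share of members near a gene end therefore depended on the rule for sharing, and was 9.35% when regions up to 200 bp apart also counted as shared, which left 1080 members.

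**Figure D2:**
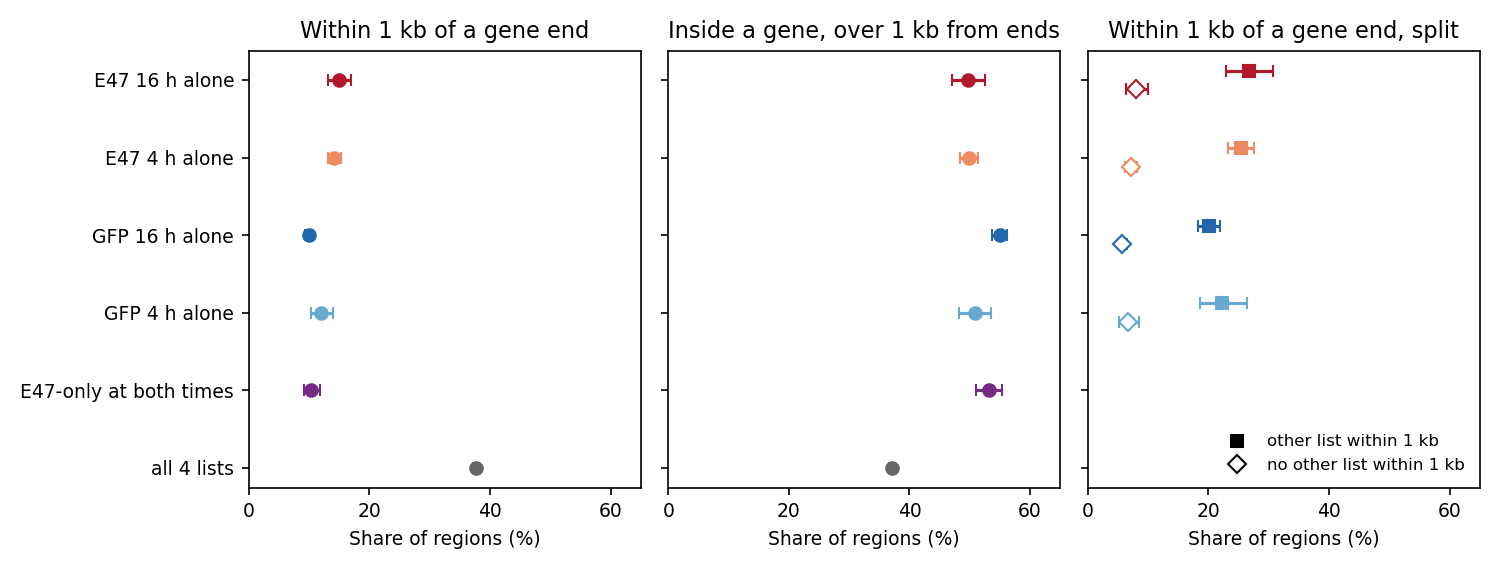
Share of regions (%) with a summit within 1 kb of a gene end (left) and inside a gene over 1 kb from its ends (middle) in members (E47 16 h alone), other single-list classes, regions in both E47 lists only, and regions in all 4 lists; right, the gene-end share split by whether another list has a region within 1 kb, drawn for the single-list classes. Points are shares and bars exact 95% binomial intervals; members beside another list stand at 26.7% and members apart at 8.01%.

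The rule has an edge at 1 bp of overlap, and few regions lay on it. The members closest to it lay 3, 10 and 16 bp from another list, at chr8:115825522-115825594, inside Inpp4b (chr8:81780517-81780589) and inside Cacnb3 (chr15:98631753-98631825), with fold enrichments of 2.23, 1.77 and 1.79. Just outside it, regions inside Stam (chr2:14139044-14139124), 33367 bp from Slc30a5 and inside Serac1 overlapped another list by 5, 16 and 17 bp and had fold enrichments of 2.53, 1.95 and 2.74. In all, 2 members lay within 10 bp of another list, 23 between 11 and 50 bp, 283 between 51 and 200 bp, and 206 farther but within 1 kb. Members were spread over the genome. Only 24 (1.73%) had another member within 1 kb, and their share of E47 16 h regions ran between 2.54% on chromosome 13 and 4.13% on chromosome 8, apart from chromosome Y with 0 of 4 regions.

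The strongest member lay inside Nme7 (chr1:164426307-164426611), a nucleoside diphosphate kinase gene whose product is part of the gamma-tubulin ring complex, with a fold enrichment of 13.4 and percentile 58.7. The nearest regions of E47 4 h, GFP 16 h and GFP 4 h were 23683, 23658 and 23681 bp away. Dctd, which encodes deoxycytidylate deaminase, held a member of nearly the same fold enrichment, 13.4, at percentile 56.6 (chr8:48123001-48123380). The member named for Zcwpw2 lay 60287 bp from the gene at 10.98. These and a member of Prdm1 were among the 5 members above the median of the list. Kifc3, a kinesin gene, had a member of fold enrichment 7.32 that lay 780 bp from a region of E47 4 h and over 6 kb from both GFP lists. Tiparp, which encodes an ADP-ribosyltransferase induced by the aryl hydrocarbon receptor, held a member at 10.01, and Slc16a14, of the monocarboxylate transporter family, a member at 11.9 that was over 30 kb from any other list. Others of the 20 strongest were named for Scaf8, Wscd1, Slc10a7, Ust, Lzts1, Cox10, Snx18, Maf, Cc2d2b, Fank1, Ppp1cc and Pacsin2, with fold enrichments between 6.38 at Cox10 and 10.98 at Slc10a7. At Cox10 the other lists had regions within 110 to 137 bp. All 20 remained with an overlap of 50% and with shortened lists, and 18 with a gap of 200 bp and with the score minimum.

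Members named 1211 protein-coding genes, the nearest within 100 kb for 1315 members. That is 8.88% of the 13631 genes named by any E47 16 h region and 5.53% of the 21896 genes of the table. Of these genes, 1124 had 1 member, 73 had 2 and 14 had 3 or more. A name is a position and not a regulatory assignment. The share of E47 16 h regions that were members was 2.14% (115 of 5371; 1.77 to 2.56) at genes with 1 such region, 3.33% (3.06 to 3.62) at genes with 2 to 4 and 3.73% (3.38 to 4.10) at genes with 5 to 9, so the share was lower at genes with a lone region. Clec16a, an autophagy gene and autoimmune risk locus in humans, had the most, 5 of its 30 E47 16 h regions, with fold enrichments between 3.04 and 5.71. Irf2bp2, a corepressor of IRF2, had 4 of 17, with fold enrichments between 2.16 and 5.65. Genes with 3 members included Tcf7, the chromatin remodeller Chd6, the clathrin assembly gene Picalm, the circadian factor gene Arntl, the Ras pathway inhibitor Spred2 and Zfp516. Several of these members are neighbours and do not count as independent events.

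Regulators of innate lymphoid precursors had members at 8 of 17 genes, Tcf7, Maf, Ets1, Gata3, Zbtb16, Gfi1, Lef1 and Tox2. These were 11 of their 167 E47 16 h regions (6.59%; 3.33 to 11.5), beside 1315 of 39119 (3.36%) for all protein-coding genes. Of the 11, 7 lay over 1 kb from other lists, a share close to the 820 of 1315 for all protein-coding genes. The same genes had 11.2% of their regions alone in E47 4 h (22 of 196, beside 8.75% for all genes), 15.2% alone in GFP 16 h (32 of 210, beside 11.99%) and 2.91% alone in GFP 4 h (5 of 172, beside 3.10%). Tcf7 encodes TCF-1, a factor needed early in T cell and innate lymphoid development. Its member inside the gene (chr11:52268185-52268830) had a fold enrichment of 6.63 and lay 5952 to 5960 bp from the nearest regions, which all 4 lists shared. Another Tcf7 member (chr11:52283126-52283505) overlapped the end of the gene and its promoter window, with its summit 77 bp outside the gene. It had a fold enrichment of 4.34 and was among the weakest of the list, at percentile 0.504. The third (chr11:52314042-52314660) lay 30839 bp away at 5.74 and percentile 15.3. Within 50 kb of the first, the E47 16 h list held 9 regions, of which 3 were members, which the other lists lack by the rule. E47 4 h, GFP 16 h and GFP 4 h held 6, 6 and 7 regions there.

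Maf, a factor gene of ILC and T helper subsets, had a member 20134 bp away (chr8:115726898-115727147) with a fold enrichment of 8.25. It stood 123 bp and 157 bp from weaker regions of E47 4 h (fold enrichment 5.86) and GFP 16 h (5.75) and 15464 bp from GFP 4 h. The other Maf member, inside the gene, was weaker, at 3.37. The member inside Ets1 (chr9:32661414-32662120), an ETS factor gene, had a fold enrichment of 8.18 and lay 8860 to 8870 bp from other lists. Gfi1, a repressor gene of lymphoid development, held a member at 5.62. The member 5428 bp from Zbtb16 (chr9:48646274-48646459), which encodes PLZF of innate lymphoid precursors, had a fold enrichment of 6.66 and lay 107289, 68709 and 107262 bp from the nearest regions of E47 4 h, GFP 16 h and GFP 4 h. The member in Gata3, the main ILC2 factor gene, was weak, at 3.72, and lay 94 and 98 bp from regions of GFP 16 h and GFP 4 h.

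ILC2 identity and effector genes had members at 7 of 29 genes and 9 of 160 regions (5.63%; 2.60 to 10.4), an interval that includes the 3.36% of all genes. Of regions at the same genes, 12.8% were alone in E47 4 h, 10.4% in GFP 16 h and 4.14% in GFP 4 h. For all protein-coding genes these shares were 8.75%, 11.99% and 3.10%. Csf2, which encodes the cytokine GM-CSF, had its member 45242 bp away at a fold enrichment of 7.21 (chr11:54201700-54202238), at least 3194 bp from other lists. Ramp1, a subunit of the receptor of the neuropeptide CGRP, held a member at 5.91, 263 bp from a region of E47 4 h and over 4 kb from both GFP lists. Il1rl1, the IL-33 receptor gene, had a member 7362 bp away at 3.79. Rora, a factor needed for ILC2 development, held 2 members inside the gene, at 6.12 and 3.45, the first over 30 kb from any other list. Pdcd1, which encodes the inhibitory receptor PD-1, had 2 members (chr1:94035825-94036071 and chr1:94048430-94048554), with fold enrichments of 3.44 and 4.62. Both adjoined strong regions of every list. For the first, the neighbour had fold enrichments of 16.9 in E47 16 h, 18.7 in E47 4 h, 16.9 in GFP 16 h and 16.9 in GFP 4 h, and ended 91 to 95 bp away.

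**Figure D3:**
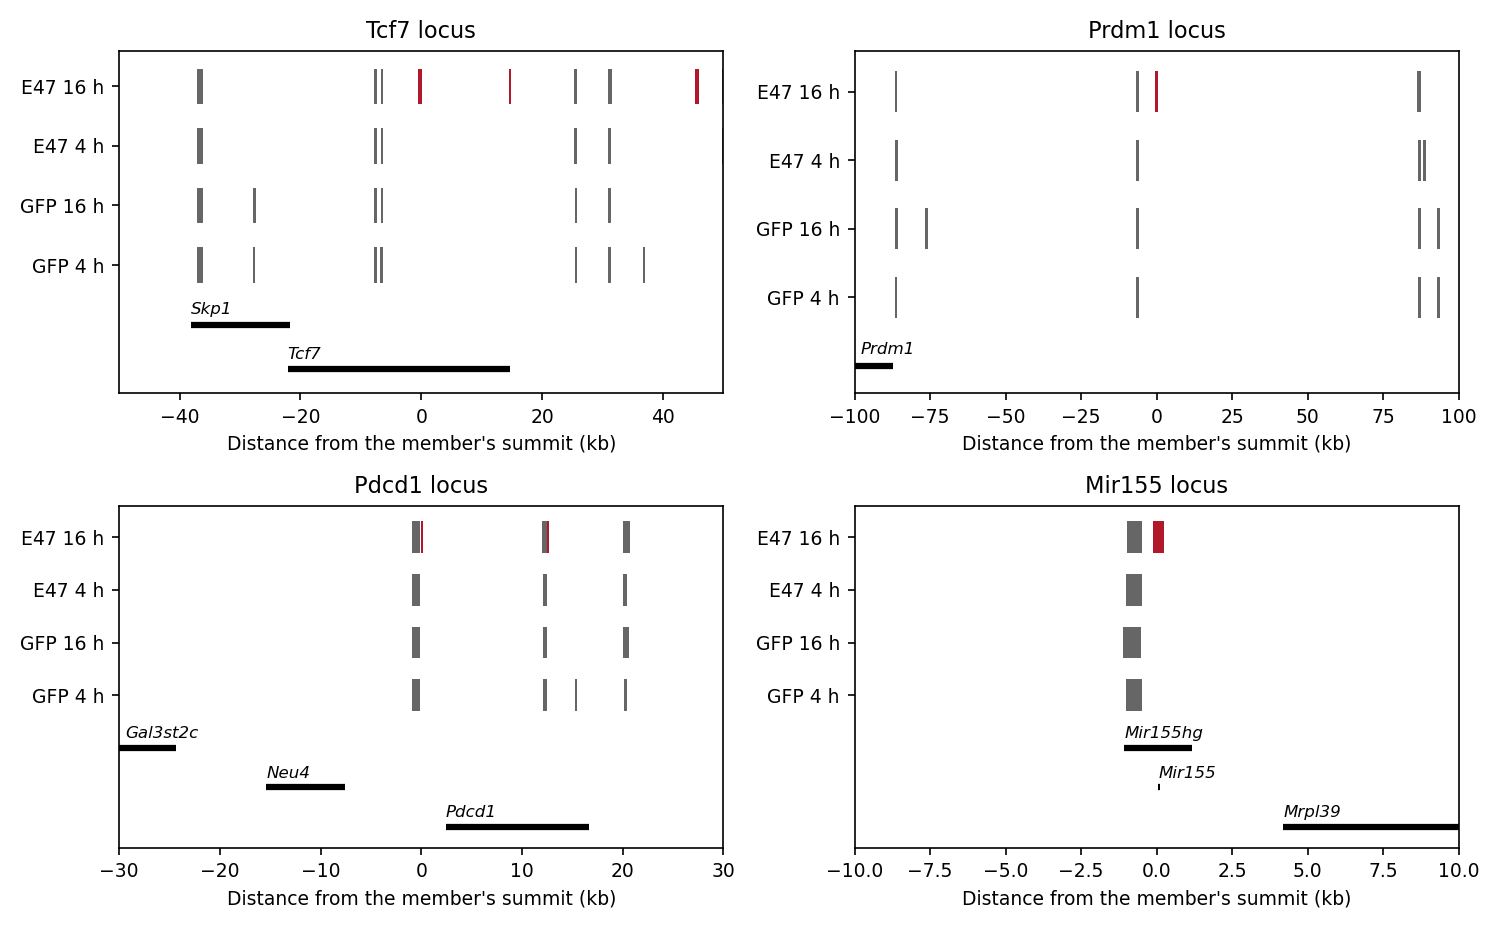
Regions of the 4 lists around members at Tcf7, Prdm1, Pdcd1 and Mir155, with distance from the summit of the named member on the x axis (kb), 1 row per list, genes as black bars, members in red and other regions in grey. Very narrow regions are drawn at a minimum width, and the loci were chosen after the values were seen; the named members at Tcf7 and Prdm1 (distance 0) stand 5952 bp and 6047 bp or more from the other lists, while at Pdcd1 and Mir155 they adjoin a region of every list.

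Genes of NK cells, ILC1s and cytotoxicity had members at 5 of 17 genes and 5 of 59 regions (8.47%; 2.81 to 18.7), beside 3.36% for all genes. For the same genes 9.38% of regions (6 of 64) were alone in E47 4 h, beside 8.75% for all genes, 3.39% (2 of 59) in GFP 16 h, beside 11.99%, and 3.92% (2 of 51) in GFP 4 h, beside 3.10%. Xcl1, a chemokine gene of NK cells, had its member 30701 bp away with a fold enrichment of 8.25 (chr1:164966077-164966363), over 5 kb from any other list. Eomes, a T-box factor gene, held a member of 5 summits inside the gene (chr9:118478624-118479475) at 6.31, which lay 829 bp from a region alone in E47 4 h and over 8 kb from both GFP lists. Klrk1, the gene of the activating receptor NKG2D, held a member at 7.38, 85 bp from a region alone in E47 4 h and 13918 bp from both GFP lists. Tnfsf10, the gene of the death ligand TRAIL, had a member at 5.22, whose nearest region of another list was 1398 bp away and alone in GFP 4 h, with E47 4 h at 3676 bp. The member named for Ifng, the interferon gamma gene, was 95539 bp away and weak, at 4.68, and lay nearer to GFP 4 h (45456 bp) than to E47 4 h (58201 bp). Among ILC3 and Th17 genes 3 of 16 had members (3 of 49 regions, 6.12%; 1.28 to 16.9), at Ltb, the AP-1 gene Batf and Il22. The Il22 member (chr10:118224024-118224207) lay 14088 bp from the gene at 5.37, and was weak, at percentile 1.54. It lay 7201 bp from the nearest region of another list, of E47 4 h. Il22 has a near-identical copy in this strain, so reads could be shared between copies and its region is uncertain.

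Costimulatory, inhibitory and TNF family genes had members at 5 of 20 genes and 6 of 116 regions (5.17%; 1.92 to 10.9), beside 3.36% for all genes. At the same genes 12.4% of regions (16 of 129) were alone in E47 4 h, 10% (14 of 140) in GFP 16 h and 2.5% (3 of 120) in GFP 4 h. For all protein-coding genes these shares were 8.75%, 11.99% and 3.10%. Besides Pdcd1 the genes with members were Tnfsf4, the OX40 ligand gene, at 6.64, Tnfsf8, the CD30 ligand gene, at 5.69, the TNF receptor gene Tnfrsf1b at 4.45, and Cd69, an early activation and tissue retention receptor gene, at 2.96. None of the 6 lay over 1 kb from another list, beside 820 of 1315 members for all protein-coding genes. When regions up to 200 bp apart counted as shared, 2 of the 6 remained.

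Prdm1, which encodes the repressor Blimp-1, had 2 members on opposite sides of the gene. The stronger (chr10:44615637-44615939) lay 87209 bp away at a fold enrichment of 12.2 and percentile 50.7, and the other (chr10:44403364-44403648) lay 33685 bp away at 4.91. The nearest region of each other list was 6047 bp from the first and 2277 to 2297 bp from the second. Of 34 repressor and AP-1 genes 6 had a member, Prdm1, Mafg, Nr4a1, Etv6, Batf and Bhlhe41 (7 of 241 regions, 2.90%; 1.18 to 5.89). The member inside Mafg, a small Maf gene, had a fold enrichment of 3.92, and that inside Nr4a1, an immediate early nuclear receptor gene, 4.71. Of 32 genes listed as targets of E proteins 4 had a member, Prdm1, Ets1, Gfi1 and Hes1 (5 of 189 regions, 2.65%; 0.864 to 6.07). Hes1, a Notch target gene, had a weak member, at 2.45, 105 to 162 bp from the other lists. The E protein and Id genes had 0 members among 48 regions, which allows a share of up to 7.40% (exact interval).

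Cytokine receptor and JAK-STAT genes had members at 6 of 35, among them Tgfbr1, Ifngr2, Il2rb, Il12rb1 and Il21r (6 of 194 regions, 3.09%). The member named for Tgfbr1, the type I TGF-β receptor gene, was strongest at a fold enrichment of 7.92 and lay 22871 bp from the gene. It adjoined a region found in all 4 lists, 92, 184 and 186 bp away in E47 4 h, GFP 16 h and GFP 4 h. It was not kept when regions up to 200 bp apart counted as shared. T cell genes had members at 4 of 29, the adaptor genes Trat1 and Skap1, the costimulatory receptor gene Cd27 and the factor gene Nfatc2 (4 of 122 regions, 3.28%). Chemokine receptor and adhesion genes had members at Cd44, Ccr1 and S1pr1 (3 of 124 regions, 2.42%), Runx, Ets and Foxo factor genes at Ets1, Foxn3, Foxo3 and Foxp1 (4 of 209, 1.91%), and cell cycle and survival genes at Bcl2l11, the death gene BIM, and Rb1 (2 of 158, 1.27%). Among lists for other cell types, Cd22 was the 1 B cell gene of 13 with a member (1 of 8 regions), and the myeloid, mast cell and housekeeping lists had 0 members of 44, 16 and 44 regions. In all, 51 of 320 listed genes had a member, and 57 of their 1617 regions were members (3.53%; 2.68 to 4.54). The interval of each of the 17 lists included the 3.36% of all protein-coding genes, so under this rule of sharing no list had a share of members outside counting error of the background. Other settings changed that for 4 lists. Under the score minimum, regions alone in E47 16 h were 14 of 152 at E protein targets (9.21%; 5.13 to 14.97), 7 of 131 at precursor regulators (5.34%; 2.18 to 10.7) and 10 of 184 at repressor and AP-1 genes (5.43%; 2.64 to 9.77), beside 2.10% for all genes. With lists shortened to equal length they were 10 of 59 at NK, ILC1 and cytotoxic genes (16.9%; 8.44 to 29.0), beside 7.22%. Both settings drop regions of the other lists, so a region that overlapped one of them can count as alone. Of regions alone in E47 16 h, members were 198 of 657 under the score minimum and 1388 of 2968 with shortened lists. The shares under these settings thus do not describe the members. Some genes sit on several lists.

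**Figure D4:**
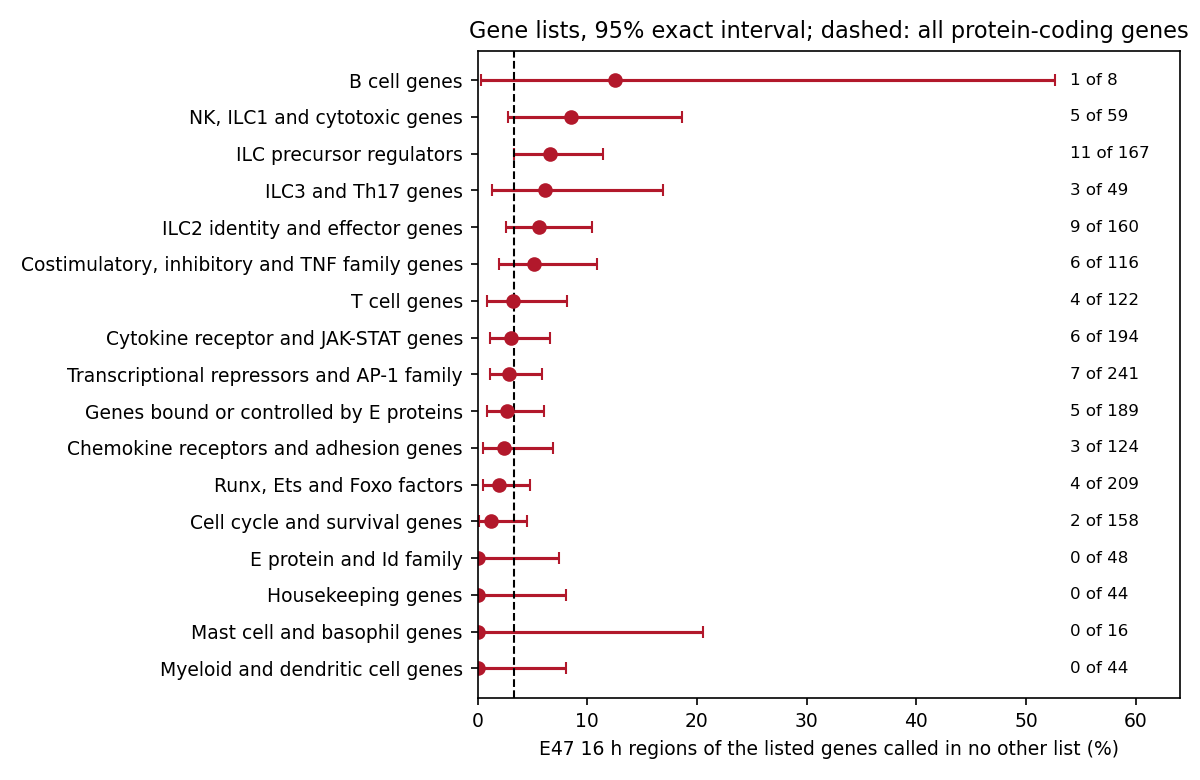
Share of the E47 16 h regions of each gene list that were called in no other peak list (%), with exact 95% binomial intervals and the counts at the right; the dashed line marks 3.36% for all protein-coding genes. The point of the precursor regulator list stands at 6.59% with a lower bound of 3.33%, and with sharing by 1 bp of overlap every interval crosses the line.

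Members at promoters were few. A promoter window was touched by 60 of 1347 members on chromosomes with windows (4.45%; 3.42 to 5.70), against 3.94% of regions alone in E47 4 h, 2.74% in GFP 16 h, 3.57% in GFP 4 h and 30.4% in all 4 lists. Windows were given for 17491 of the 21896 protein-coding genes, so these shares are low by the genes without one. Of the 60 members, 29 had their summit within 100 bp of the start. The 60 members touched windows of 58 genes, and the window of each member was counted separately. Their windows were poorer in CpG than those of shared regions. Fewer than 10 CpG were found in 51.7% of them (31 of 60; 38.4 to 64.8), against 12.1% (11.4 to 12.8) of windows touched by regions in all 4 lists and 56.5% of all 32851 windows. Windows of regions alone in the other lists were also poor in CpG, at 42.9%, 43.5% and 34.0% in E47 4 h, GFP 16 h and GFP 4 h.

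CAGGTG or CAGCTG, on either strand, stood in the window of 25 of these 60 members, each member counted once (41.7%; 29.1 to 55.1), and in 18 of the 25 a match lay inside the member. The share was 40.5% for regions alone in E47 4 h (33.0 to 48.3), 28.2% in GFP 16 h (21.6 to 35.6), 40.4% in GFP 4 h (26.4 to 55.7), 28.3% in all 4 lists (27.4 to 29.2) and 32.9% over all windows. The interval of the members included the share of all windows and overlapped those of each other single list. AGGAAG, a core bound by ETS factors, stood in 46.7% of members' windows (28 of 60, lower bound 33.7) and 35.4% of all windows. TGTGGT, bound by RUNX factors, stood in 12 of 60 and in 16.8% of all windows. AGATAA, bound by GATA factors, stood in 4 of 60 and in 11.2%, and TGANTCA, bound by AP-1, in 3 of 60 and in 7.81%. Each interval of the members included the share of all windows.

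**Figure D5:**
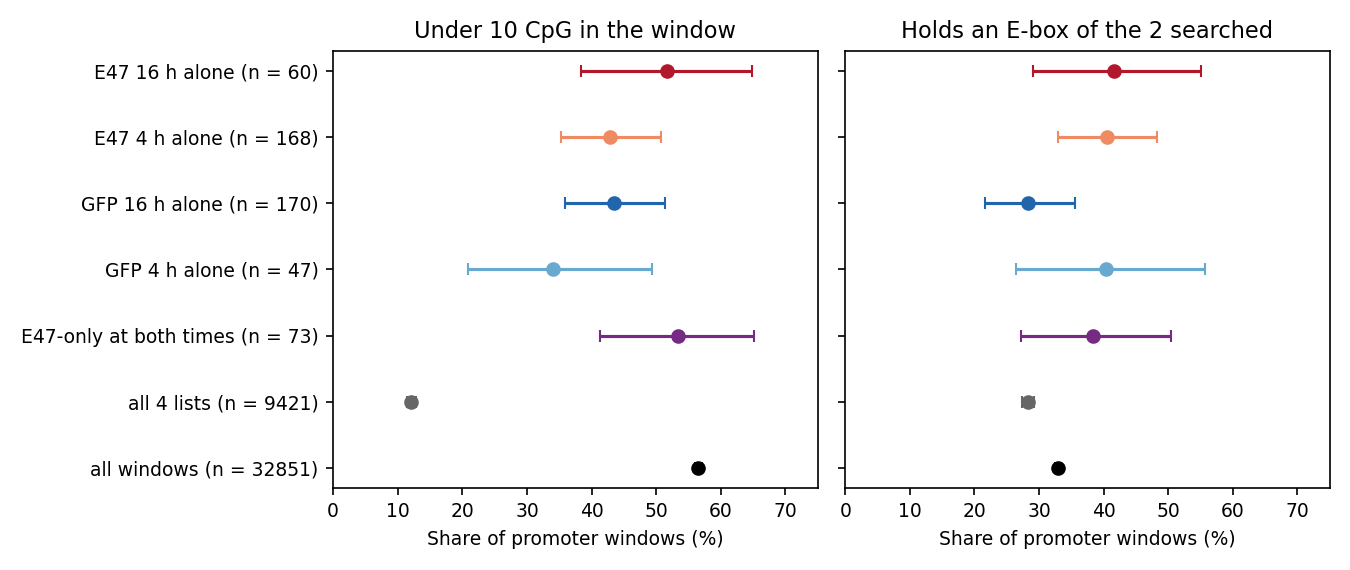
Share of promoter windows (%) with fewer than 10 CpG (left) and with CAGGTG or CAGCTG on either strand (right), for windows touched by members (E47 16 h alone), by the other classes and over all windows; bars are exact 95% binomial intervals and n counts regions that touch a window. Members stand at 51.7% and 41.7%, with wide intervals from 60 members over the windows of 58 genes.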

How the data were processed

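The 8 samples formed 4 groups of 2 by their titles, which agree in transduction and time. Each deposited file holds 1 peak list for a group of 2 samples, a conservative set by IDR (irreproducible discovery rate), per the labels. The tools cutadapt, Bowtie2, MACS2 and DiffBind and the build mm10 are those of the submitters' processing notes, with versions and settings not given in the sources used. The deposited columns used were a score from 540 to 1000, a fold enrichment, which is a ratio over background by the authors, and a −log10 p, also by the authors. These values belong to each list alone and −log10 p grows with depth, which the files do not give. Lists were therefore compared by calls and ranks, and fold enrichments of different lists are set beside each other as description only.

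Lines overlapping within a list were merged and regions of different lists linked where they overlapped by 1 bp or more. In E47 16 h, 109772 lines became 40649 regions. The nearest protein-coding gene body within 100 kb of the summit came from the RefSeq table of GRCm38.p6, which gives no exons. Promoter windows came from the RefSeq promoter table, from which no window of chromosome 18 was used. Merging and classes were checked on simulated data, where 15 of 15 classes of 20000 regions were recovered. Exact 95% intervals are Clopper-Pearson. Software was Python 3.11.15, numpy 2.4.6, pandas 2.3.3, scipy 1.17.1 and matplotlib 3.10.9.

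The members and the 17 gene lists (320 genes) were chosen with earlier results of these data known. Named genes were the 20 strongest members, up to 8 genes with at least 3 members, up to 6 genes with a member per list, the 10 strongest members within 1 kb of a gene end, and Tcf3, Esr1 and Id1. Genes outside this rule, among them Shisa5, Pglyrp1, Tafa3, Fam83b, Mir155 and the regions at the edge of the rule, were chosen after their values were seen. The promoter windows, the split by distance to another list and the hairpins were added after the files were seen. Alternatives were other rules of overlap, list length, score, strength and distance.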

Additional observations from a re-analysis of the deposited data

How the results depend on the processing

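No paired analysis was possible because each group has 1 peak list and no values per sample, and for the same reason no replicate could be left out. Of 51 recomputed values, 29 kept within the limits set for them, 22 moved and 0 reversed. An overlap of 50% of the shorter region gave 1407 regions alone in E47 16 h, among them the 1388 members. With regions up to 200 bp apart shared, 9.35% of members lay near a gene end, 53.0% lay inside genes and 19.1% had another list within 1 kb. With lists shortened to the shortest, 2968 regions were alone in E47 16 h, of which 1388 were the members. In E47 4 h, GFP 16 h and GFP 4 h, 1726, 2077 and 2110 regions were alone. The 2968 regions named 96 listed genes in place of 51, and 33.3% of them had another list within 1 kb. Shortening the other lists by construction removes their weak regions. With a score of at least 830, 657 regions were alone in E47 16 h, of which 198 were members, and 682 were alone in GFP 4 h. The 657 regions named 31 listed genes. Of them, 11.6% lay near a gene end, 0 above the median of the list and 29.8% within 1 kb of another list. Members above their median −log10 p had 31 listed genes and 33.9% within 1 kb of another list. Single summits with no other summit within 150 bp numbered 4276. Wider limits by construction gave 22.3% within 2.5 kb of a gene end, 59.7% within 5 kb of another list and 105 listed genes with every gene within 100 kb, and starts in place of ends gave 11.4%. The cause of the other moves was not tested. The share of regions alone in E47 16 h lay above that of all genes for 3 gene lists under the score minimum and for 1 with shortened lists, as given above. Across the settings of overlap, list length and score, 35.8% to 43.2% of promoter windows of regions alone in E47 16 h held an E-box. In 47.01% to 54.5% of them there were under 10 CpG. The planned motif search around summits was not run, since no genome of the build was used. Depth is not given, so a region missing from a list cannot be told apart from one below its threshold.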

Other observations

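Members also named 62 genes that no region of another list named (5.12% of 1211; 3.95 to 6.52), against 234 of 3275 (7.15%) for regions alone in E47 4 h, 270 of 4157 (6.50%) in GFP 16 h and 65 of 1173 (5.54%) in GFP 4 h. Examples were chosen after the values were seen. Slc16a14 and Cc2d2b had the strongest, with fold enrichments of 11.9 and 10.3. Several of the genes belong to other tissues. Tnp2, a sperm nuclear protein gene, had a member over its start at 2.66, and Tbx1, a developmental T-box factor gene, one 253 bp from an end of the gene at 5.27. Otx1, a forebrain factor gene, Wnt1, a developmental ligand gene, and Lin28a, an RNA-binding gene of stem cells, had members of fold enrichments 4.94, 3.81 and 5.76. Cyp1a1, the classic target gene of the aryl hydrocarbon receptor, held a member at 6.38. Cd22, an inhibitory receptor gene of B cells, had a member at 5.58 that was over 20 kb from any other list.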
